A study of Homo sapiens with 3 samples.

Results

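The long noncoding RNAs MALAT1, NEAT1, NORAD, TUG1 and KCNQ1OT1 were followed transcript by transcript in HEK293T cells, chosen by name from the 61193 annotated genes with a listed transcript, of which 17557 are annotated as long noncoding RNA (lncRNA) genes. All 5 were found. Gene expression was measured by 3′ mRNA-seq in 3 replicates of HEK293T, an established line of human embryonic kidney origin with the SV40 large T antigen, grown in DMEM with FBS and collected untreated, so there were no groups to compare. The libraries were primed at poly(A) stretches and read near the 3′ end of the RNA, and the study used them as the expression background for maps of i-motifs, folded structures of C-rich DNA. Counts summed to 7019253, 6262175 and 8521624 in replicates 1, 2 and 3. Replicate 3 stood apart, with 25.8% of its counts on mitochondrial genes against 9.59% in replicate 1 and 5.70% in replicate 2, so values for the members are given for each replicate.

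These RNAs are known for work done as RNA, although the annotation types the TUG1 gene and its transcript TUG1-217 as protein-coding. MALAT1 gathers in nuclear speckles, where splicing factors are stored, and its 3′ end is cut by RNase P and closed by a triple helix in place of a poly(A) tail. NEAT1 is made as a short polyadenylated form and as a long form that builds paraspeckles and ends in the same way as MALAT1. NORAD is a mostly cytoplasmic RNA that binds PUMILIO proteins, TUG1 has been linked to Polycomb repression, and KCNQ1OT1 is transcribed antisense to KCNQ1 and silences genes of its imprinted domain on the paternal chromosome.

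How the annotated RNAs end bears on libraries primed at A stretches, so the last bases of 4 of the transcripts described here are shown 5′ to 3′ on GRCh38, with the poly(A) signal AATAAA in capitals where it occurs. NORAD-201 ends at chr20:36045618-36045677 on the minus strand, the short NEAT1-209 at chr11:65426454-65426513 and the long NEAT1-202 at chr11:65445481-65445540, both on the plus strand, and KCNQ1OT1-201 at chr11:2608328-2608387 on the minus strand.
NORAD-201: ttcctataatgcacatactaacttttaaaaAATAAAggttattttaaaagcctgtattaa
NEAT1-209: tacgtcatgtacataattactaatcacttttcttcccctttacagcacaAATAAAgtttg
NEAT1-202: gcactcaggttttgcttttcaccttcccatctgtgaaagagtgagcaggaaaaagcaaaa
KCNQ1OT1-201: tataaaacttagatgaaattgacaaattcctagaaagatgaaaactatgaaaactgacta
The signal, as AATAAA or ATTAAA in the last 50 bases, was present in NORAD-201 and in the short NEAT1-208 and NEAT1-209, and in 32.6% of 210256 listed transcripts. It was also present in MALAT1-208, TUG1-201, TUG1-215, TUG1-216 and TUG1-219, which like the short NEAT1 forms had 0 counts. These letters were not found in that window of NEAT1-202, KCNQ1OT1-201 or TUG1-206, which had counts. The sequences of MALAT1-202 and TUG1-217 were not read, because their deposited lengths differ from GENCODE v44.

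Runs of at least 10 A inside an RNA are other places where an oligo-dT primer can anneal, and the longest run of 3 of the transcripts with counts is shown with the run in capitals. They lie at chr11:65440828-65440879 in NEAT1-202, chr11:2610702-2610760 in KCNQ1OT1-201 and chr22:30974341-30974369 in TUG1-206, on the strand of each gene.
NEAT1-202: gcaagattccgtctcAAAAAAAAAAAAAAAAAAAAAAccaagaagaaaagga
KCNQ1OT1-201: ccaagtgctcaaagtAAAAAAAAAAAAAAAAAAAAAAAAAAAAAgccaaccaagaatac
TUG1-206: aagtctgAAAAAAAAAAAAAAAgacttct
NORAD-201 held 1 such run of 10 A, TUG1-206 held 1 of 15, NEAT1-202 held 5 with the longest at 22, and KCNQ1OT1-201 held 17 with the longest at 29. Per kb the runs were similar, at 0.185 in NORAD-201, 0.238 in TUG1-206, 0.220 in NEAT1-202 and 0.185 in KCNQ1OT1-201. None of the 8 short NEAT1 transcripts, of 512 to 3524 bases, had a run, and 10 TUG1 transcripts at 0 counts held a run of 18. Of the 8881 listed transcripts of at least 5000 bases, 36.3% had at least 1, a share that does not take length into account. Reads carry no position in the deposited tables, so whether any read began at these runs was not tested.

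The 5 RNAs differed widely in counted level, and only NORAD was high on both scales used. CPM is the count of a gene over all counts of its library, scaled to 1000000, and TPM (transcripts on the same scale) is also divided by transcript length, which lowers long RNAs in libraries that read only the 3′ end. Together the mean levels summed to 1230 CPM, of which NORAD held 78.5%. A mean of at least 1 TPM was reached by 4 of the 5, against 15.2% of all lncRNA genes and 21.7% of all genes, and MALAT1 was just under it. The name of abundant lncRNAs therefore goes against the counted level of MALAT1 in these tables. MALAT1 has 16 listed transcripts and no poly(A) tail, and the part of either in its count was not tested. Nothing here separates fewer cells with an RNA from less RNA per cell.

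**Figure D1:**
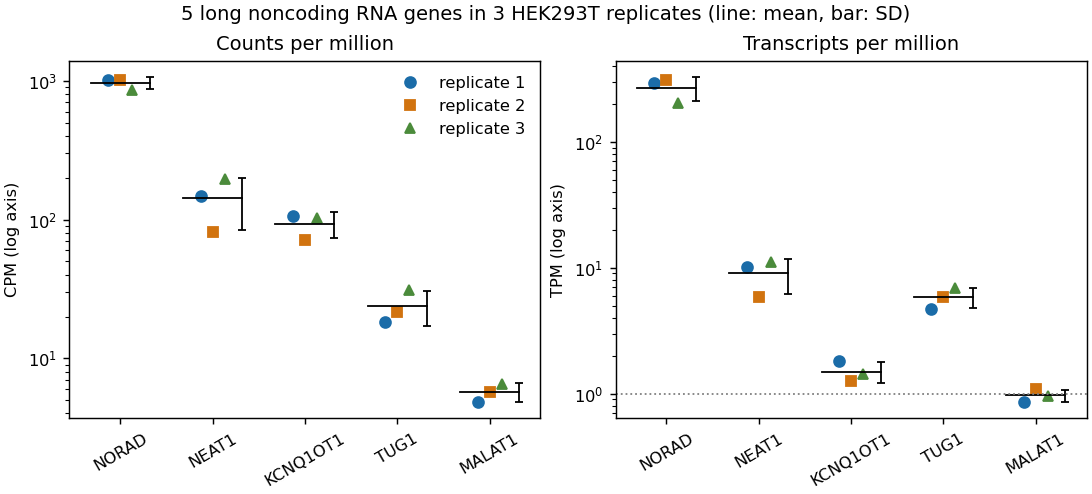
Level of the 5 RNAs in CPM (left) and TPM (right), both on log axes, in each of 3 HEK293T replicates (points), with the mean (line) and SD (bar). NORAD is highest on both scales, and MALAT1 lies next to the dotted line at 1 TPM.

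MALAT1 (ENSG00000251562, chr11:65497640-65508073, plus strand) had 34, 36 and 56 counts in replicates 1, 2 and 3. These are 4.84, 5.75 and 6.57 CPM, with 95% Clopper-Pearson intervals of 3.35 to 6.77, 4.03 to 7.96 and 4.96 to 8.53 CPM, which cover counting error only. The 3 intervals overlapped, and a difference between the replicates was not tested. The mean was 5.72 ± 0.864 CPM (SD, n = 3). Per length it stood at 0.860, 1.08 and 0.964 TPM, a mean of 0.968 ± 0.109. By CPM it still lay above 89.8% of the 7060 lncRNA genes with a count, at rank 721, because the median of those genes was only 0.352 CPM. By TPM the rank was 2708.

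All MALAT1 counts sat on 1 of its 16 listed transcripts, MALAT1-202, with a deposited length of 8708 bases. The other 15 had 0 counts in every replicate. MALAT1 models changed more than most between annotation releases: 12 of the 16 lengths differ from GENCODE v44, where MALAT1-202 has 10434 bases, while 94.0% of all matched transcripts keep their length. For this reason the bases that a deposited MALAT1 transcript shared with the others could not be placed. On the v44 models, 2873 exonic bases of MALAT1-202 were free of the other listed transcripts on its strand, among them a last stretch of 1557 bases at chr11:65506517-65508073. On either strand, 2263 bases of MALAT1-202 were free of other listed transcripts. TALAM1, a gene antisense to MALAT1, has no listed transcript. ENSG00000270117, a lncRNA gene that overlaps MALAT1 on the opposite strand, has 1 listed transcript and had 0 counts, as did the small RNA entries inside MALAT1.

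NEAT1 (ENSG00000245532, chr11:65422774-65445540, plus strand) carried 1043, 509 and 1678 counts. These are 149, 81.3 and 197 CPM with intervals of 140 to 158, 74.4 to 88.7 and 188 to 207, so the replicates differed by more than counting error. The mean was 142 ± 58.1 CPM (SD, n = 3), rank 16 among lncRNA genes, and the mean per length was 9.002 ± 2.78 TPM from 10.1, 5.84 and 11.1. NEAT1 was the most variable of the 5, with a highest level 2.42 times the lowest, and 2.78% of the 5678 genes that had 50 counts or more in each replicate reached that ratio. Its order over the replicates, lowest in 2 and highest in 3, was also that of the mitochondrial share, and the part of that share was not tested.

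Every NEAT1 count was on NEAT1-202, the long form of 22743 bases. The 8 short transcripts, which end before it in the first 4 kb of the gene, were listed at 0 in all replicates, although NEAT1-208 and NEAT1-209 hold the poly(A) signal shown above. A base was called own where no other listed transcript with coordinates covered it on the same strand. NEAT1-202 had 18927 own bases, in stretches of 17944 bases at chr11:65426514-65444457 and 983 bases at chr11:65444558-65445540. All 5 of its A runs lay within them. The short forms lie almost wholly inside the exon of NEAT1-202, so a count of 0 on them is a statement about the table and not a measure of short NEAT1.

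NORAD (ENSG00000260032, chr20:36045618-36051018, minus strand) was the highest lncRNA gene by mean CPM and the highest of the 5 in every replicate. It held 7178, 6384 and 7273 counts, or 1022.6, 1019.5 and 853 CPM, with intervals of 999 to 1047, 995 to 1045 and 834 to 873. Replicates 1 and 2 were level and replicate 3 was lower, with a mean of 965 ± 96.8 CPM (SD, n = 3). Per length the values were 293, 308 and 202 TPM, a mean of 268 ± 57.5, which is rank 7 among lncRNA genes and above the upper quartile of 24.1 TPM of the 13296 genes with at least 1 TPM. NORAD has 1 listed transcript, NORAD-201 of 5401 bases, and no other listed transcript covers any of its bases on either strand. With mitochondrial counts left out of the totals its level was 1131, 1081 and 1151 CPM, so the fall in replicate 3 was not seen on that scale.

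PUMILIO proteins bind the 8 bases TGTANATA, where N is any base, and NORAD is known for its many copies. NORAD-201 held 15 of them, read on its own strand, of which 10 were TGTATATA, 4 were TGTAAATA and 1 was TGTACATA. The first starts at position 819 and the last at 4657, counted from the 5′ end. One copy of each form is shown in capitals within its stretch, and the last stretch also holds, in lower case, the TGTATATA at position 1500. They lie at chr20:36050182-36050211, chr20:36049702-36049731 and chr20:36049492-36049521.
NORAD-201 at 819: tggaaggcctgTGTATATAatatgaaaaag
NORAD-201 at 1299: aaatcacatttTGTAAATAcctttttgtta
NORAD-201 at 1509: tgtgtatatagTGTACATAaaggacagacg
Of the 8881 listed transcripts of at least 5000 bases, 53.8% held at least 1 element, and the median was 1. NORAD-201 was itself among the 6 transcripts, or 0.0676%, that held 15 or more. NORAD-201 had 2.78 elements per kb, KCNQ1OT1-201 had 0.0982 with 9 elements and NEAT1-202 had 0.264 with 6. A match of letters is a description and no measure of binding.

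**Figure D2:**
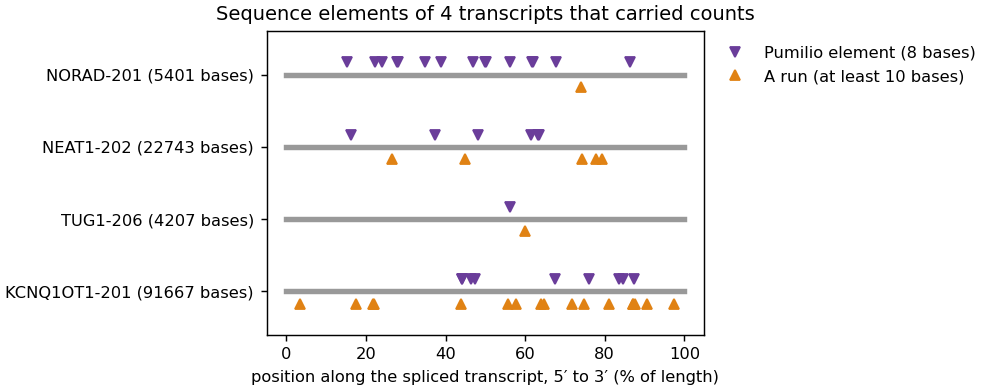
Position of TGTANATA elements (triangles above each line) and of runs of at least 10 A (triangles below) along 4 spliced transcripts with counts, as percent of transcript length from the 5′ end. NORAD-201 has 15 elements and 1 A run, whereas KCNQ1OT1-201 has 9 elements and 17 A runs over a much longer RNA.

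TUG1 (ENSG00000253352, chr22:30969245-30979395, plus strand) was low by CPM and closer to NEAT1 per length. It had 129, 136 and 265 counts, or 18.4, 21.7 and 31.1 CPM, with intervals of 15.3 to 21.8, 18.2 to 25.7 and 27.5 to 35.1. Replicate 3 was the highest and its interval lay above the others, and the mean was 23.7 ± 6.59 CPM (SD, n = 3), which places it at rank 169. In TPM it stood at 4.72, 5.89 and 6.88, a mean of 5.83 ± 1.08. GENCODE v44 types the gene as protein-coding, and it was ranked here beside the lncRNA genes.

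TUG1 was the only one of the 5 with counts on more than 1 transcript, TUG1-217 and TUG1-206 of 20 listed. TUG1-217, of 7469 bases, had 89, 94 and 165 counts, and TUG1-206, of 4207 bases, had 40, 42 and 100. Both had counts in every replicate, and the other 18 were at 0. The own bases of TUG1-217 were 951, in stretches of 85, 319 and 547 bases, the last of them the 3′ end of the gene at chr22:30978849-30979395. TUG1-206 had 1066 own bases in 1 stretch at chr22:30974104-30975169, which the other listed transcripts splice out or do not reach, and its run of 15 A lies inside it.

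KCNQ1OT1 (ENSG00000269821, chr11:2597308-2700003, minus strand) had 748, 444 and 869 counts. The levels of 107, 70.9 and 102 CPM had intervals of 99.1 to 114, 64.5 to 77.8 and 95.3 to 109, so replicate 2 was lower and the other two overlapped. The mean was 93.1 ± 19.4 CPM (SD, n = 3), rank 27 among lncRNA genes. Divided by its length the same RNA was low, at 1.80, 1.26 and 1.42 TPM with a mean of 1.49 ± 0.275, rank 2198 and below the lower quartile of 2.40 TPM of genes with at least 1 TPM. Its 1 listed transcript, KCNQ1OT1-201, covers 91667 bases at chr11:2608328-2699994 with no other listed transcript on its strand, and 90544 of them are free on either strand. KCNQ1, on the opposite strand across the whole of KCNQ1OT1, had 0 counts in every replicate. The strand setting of the counting is not given in the sources used here, so reads from unspliced KCNQ1 and from KCNQ1OT1 cannot be told apart.

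Side by side, the genes with 1 listed transcript, NORAD and KCNQ1OT1, had all their bases to themselves, and the genes with several had counts, where own bases could be placed, on the transcripts with the most of them. Without MALAT1, 5 of the 31 listed transcripts had at least 300 own bases, the fewest being 951, and all 5 carried counts. The other 26 had at most 90 own bases, 23 of them none, and all 26 were at 0 counts. Over all matched transcripts, counts were present in 0.640% of the 76836 with no own base, 12.99% of the 82673 with 1 to 299, 35.9% of the 41263 with 300 to 999 and 58.9% of the 22786 with at least 1000. Of the members with several transcripts, NEAT1 and MALAT1 had every count on 1 transcript, which was so for 31.5% of the 6480 genes with several transcripts and at least 50 counts. How the counting treated a read on several transcripts is not given in the sources used here, and its part in these levels was not tested.

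**Figure D3:**
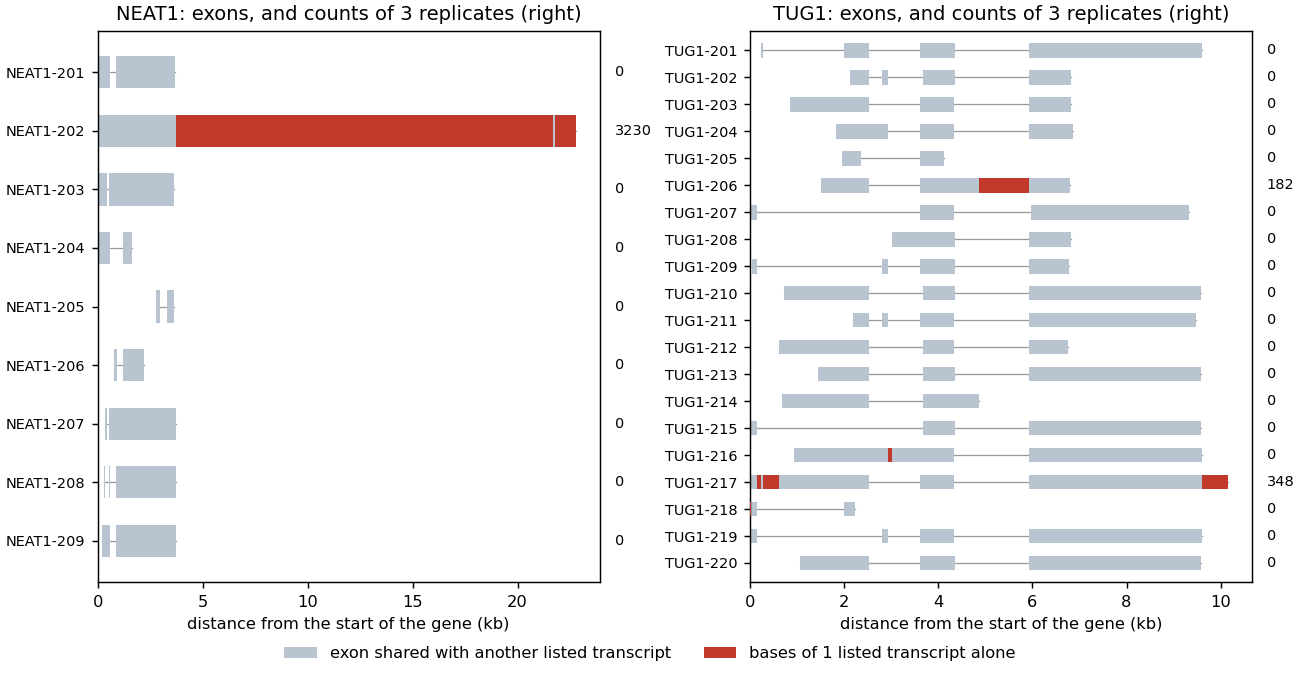
Exons of the listed transcripts of NEAT1 (left) and TUG1 (right) by distance from the start of the gene in kb, with own bases in red and bases shared with another listed transcript in grey, and the counts of 3 replicates added up at the right of each. All 3230 NEAT1 counts are on NEAT1-202, and TUG1 counts are on TUG1-217 (348) and TUG1-206 (182).

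Per length, the order was NORAD, NEAT1, TUG1, KCNQ1OT1 and MALAT1. On the log2 scale of TPM, NORAD exceeded NEAT1 by 4.91 ± 0.76, TUG1 exceeded KCNQ1OT1 by 1.89 ± 0.48 and KCNQ1OT1 exceeded MALAT1 by 0.57 ± 0.39 (SD, n = 3), each in 3 of 3 replicates. NEAT1 and TUG1 did not separate, with a mean difference of 0.58 ± 0.55, NEAT1 higher in 2 of 3 replicates and ranges that overlapped. In CPM the order was NORAD, NEAT1, KCNQ1OT1, TUG1 and MALAT1, with log2 steps of 2.85 ± 0.77, 0.54 ± 0.38, 1.98 ± 0.48 and 2.01 ± 0.19, all in the same direction in 3 of 3 replicates, and ranges that overlapped only for NEAT1 and KCNQ1OT1. The places of KCNQ1OT1 and TUG1 thus turned over with the division by length. A two-sided exact sign-flip permutation test cannot go below 0.25 with 3 replicates, and gave p = 0.25 for each CPM step and adjusted p of 0.333 to 0.5 for the TPM steps.

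**Figure D4:**
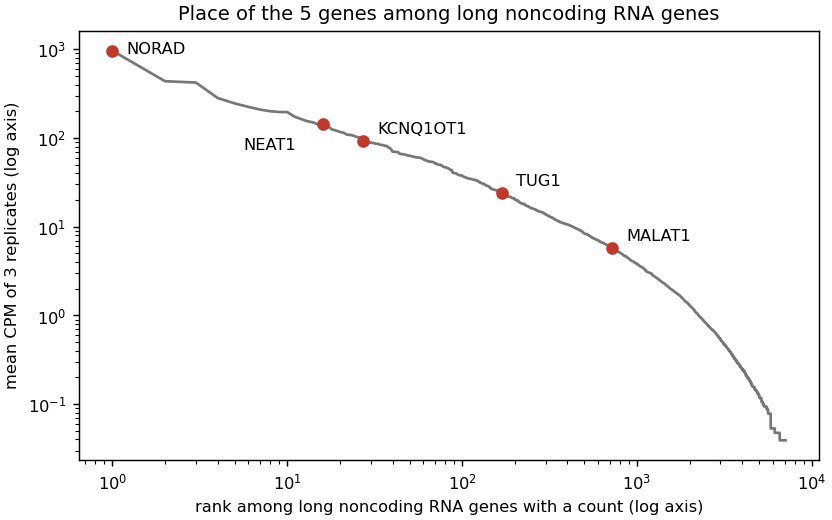
Mean CPM of 3 replicates against rank for the lncRNA genes with a count, both on log axes, with the 5 RNAs marked. They sit at ranks 1, 16, 27, 169 and 721.

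The course of the 5 RNAs over the replicates depended on the total used. In replicate 3 against the mean of replicates 1 and 2, the log2 CPM difference was 0.78 for NEAT1, 0.63 for TUG1, 0.31 for MALAT1, 0.20 for KCNQ1OT1 and -0.26 for NORAD, beside a median of -0.23 over those 5678 genes with 50 counts or more in each replicate. NORAD was thus near the median, and the other 4 lay above it. MALAT1, NEAT1 and TUG1 were highest in replicate 3, as were 23.7% of those genes, which do not include MALAT1. NORAD was lowest there, as were 62.9%, and NEAT1 and KCNQ1OT1 were lowest in replicate 2, as were 17.4%. With mitochondrial counts left out of the totals, NEAT1 was at 164, 86.2 and 266 CPM and TUG1 at 20.3, 23.0 and 41.9, so both stayed highest in replicate 3. MALAT1 (8.86 CPM), NORAD (1151) and KCNQ1OT1 (138) were then highest there too, and the replicate 3 difference was above 0 for all 5, at 0.62 for MALAT1, 1.08 for NEAT1, 0.057 for NORAD, 0.95 for TUG1 and 0.51 for KCNQ1OT1. This scale raises every gene outside the mitochondrial genome most in replicate 3, where the mitochondrial share was largest. The median over all genes was not computed on it, so a difference above 0 does not set the members apart.

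The nearest other named lncRNAs in level were found by the mean absolute log2 CPM difference over the 3 replicates. Genes known only by an identifier were left out of this search, and some of them may lie nearer. SUCLA2-AS1 lay 0.048 from MALAT1, at 5.13, 5.91 and 6.45 CPM, and MMP25-AS1 lay 0.12 away. ENTPD3-AS1 and SLC25A21-AS1 lay 0.077 and 0.098 from TUG1. PIK3CD-AS2 lay 0.19 from KCNQ1OT1, at 85.1, 82.7 and 101 CPM, while SNHG4, a host gene of a small nucleolar RNA, was next to both KCNQ1OT1 (0.22) and NEAT1 (0.37). NORAD had no close neighbour: OIP5-AS1 came nearest at 1.19, with 424, 430 and 414 CPM. LINC00265 passed NORAD only in replicate 3, where it had 11117 counts against 43 and 7 in replicates 1 and 2, and its mean of 437 ± 751 CPM rests on that library. ENSG00000234147 (283 CPM) and ENSG00000268205 (246 CPM) completed the 5 highest lncRNA genes by mean CPM.

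Genes beside the members had few counts, though mean TPM was not low for all of them. FRMD8, 9249 bases from NEAT1, had 14, 12 and 4 counts and a mean of 6.21 TPM. MORC2, a chromatin-compacting ATPase whose gene starts 471 bases from TUG1 on the other strand, had 7, 5 and 14 counts (0.320 TPM). CNBD2, near NORAD, had 2, 8 and 5 (0.432 TPM). The nearest well counted gene was ENSG00000291174, a lncRNA gene 9717 bases from NEAT1, with 77, 74 and 68 counts. Its mean of 22.1 TPM was above the 9.002 TPM of NEAT1. MIR612 and the other small RNA entries inside NEAT1 were listed at 0.

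The proteins that make or meet these RNAs were mostly counted, in lists written from general knowledge. Of 12 proteins for the MALAT1 3′ end, 9 reached a mean of 1 TPM, with a list median of 6.89 TPM. POP7, a subunit of RNase P, stood at 1890 ± 849 TPM (SD, n = 3), ELAC2, which trims the small RNA released from the MALAT1 end, at 6.87 ± 3.07 and METTL16, which binds the triple helix, at 2.11 ± 0.603, while POP4 and RPP21 were listed at 0, with up to 498 and 502 own bases in a transcript. Of 13 nuclear speckle proteins 10 reached 1 TPM (median 13.3), with SRSF3 at 274 TPM, the speckle core proteins SON at 13.3 and SRRM2 at 1.41, and SRSF2 listed at 0 with at most 7 own bases in any transcript. Of 12 paraspeckle proteins 8 reached it (median 8.97). SFPQ stood at 1048 ± 380 TPM and NUDT21 at 306, whereas NONO, the usual partner of SFPQ, was at 0.485 and HNRNPK was listed at 0 with up to 556 own bases. Levels at or near 0 in this and the other lists describe the table, because how reads on several transcripts were counted is not given. Whether the cells lack these RNAs was not tested.

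Of 8 NORAD partners 7 reached 1 TPM (median 11.1). TOP1, the DNA topoisomerase, stood at 1036 TPM and the mRNA export adaptor ALYREF at 988, while the PUMILIO protein PUM2 had 0.702 ± 0.642 TPM (SD, n = 3), from 3, 0 and 3 counts. Of 8 Polycomb and related silencing proteins 4 reached it (median 2.23), with SUZ12, a core Polycomb subunit, at 55.1 TPM, the methyltransferase EZH2 at 0.175 and EHMT2 listed at 0 with up to 1296 own bases. The 12 genes of the imprinted domain of KCNQ1OT1 were the exception, and the part of KCNQ1OT1 or of the counting in this was not tested. None reached 1 TPM, 8 were listed at 0 and the 12 had 9 counts in all, among them KCNQ1 and the cell cycle inhibitor CDKN1C at 0 and SLC22A18AS highest at 0.180 TPM. CD81 and NAP1L4, from the outer part of the domain, were also at 0, with up to 3358 and 820 own bases in a transcript. Own bases can lie anywhere in a transcript, so they do not show whether reads near its 3′ end were shared. Against these shares, 38.2% of all protein-coding genes reached 1 TPM.

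**Figure D5:**
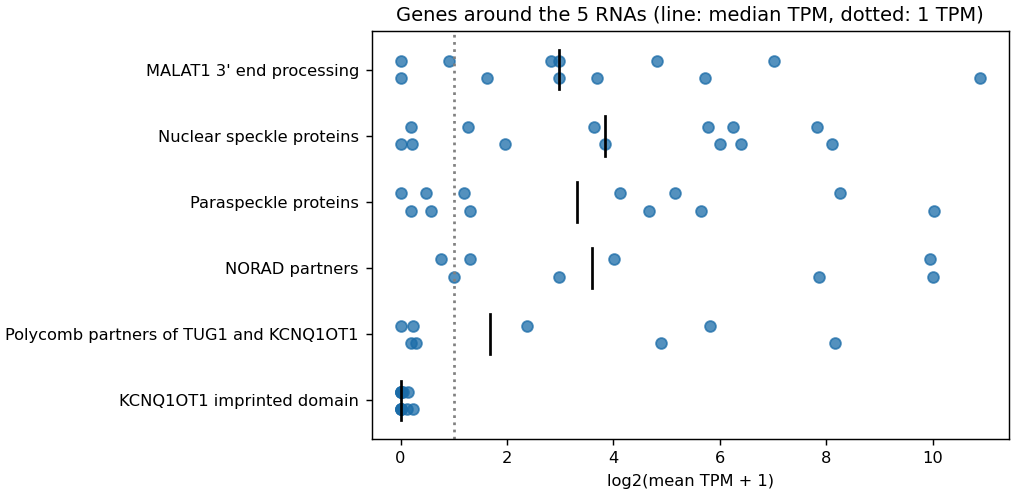
Mean level of each gene of 6 lists as log2(mean TPM + 1), 1 point a gene, with the list median as a line and 1 TPM dotted. The 12 genes of the KCNQ1OT1 domain lie at or near 0, and every other list spans genes from below 1 TPM to 274 TPM or more.

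The study mapped i-motifs, so the promoters of the members were searched for 4 tracts of at least 3 C with loops of 0 to 7 bases. RefSeq on GRCh38.p14 gave 300-base promoters, from 250 bases before to 50 after the start, for MALAT1 (2 starts), NORAD and TUG1. NEAT1 and KCNQ1OT1 had no entry. A match was found at the first MALAT1 start, whose promoter has 73.7% GC, and at NORAD with 63.0% GC, and is shown with the C tracts in capitals, at chr11:65497713-65497735 on the plus strand and chr20:36051063-36051086 on the minus strand.
MALAT1: CCCtCCCCgCCCCCgctctCCCC
NORAD: CCCCattCCCCattCCCCaCCCCC
The second MALAT1 start (46.0% GC) and TUG1 (67.7% GC) had none, nor did any of the 4 promoters hold the same pattern of G. Among 35116 promoters of the same length, 14.2% held the C pattern and 15.5% the G pattern, and median GC was 58.7%. The highest and the lowest of the 5 RNAs by level both had a match, and folding at these sites was not measured here.

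Of 9 HEK293T markers 5 reached 1 TPM, beside the 38.2% of all protein-coding genes, with INA at 38.8 TPM, while VIM was at 0.656 and KRT18, NEFM and NEFL were listed at 0, with up to 523, 361 and 2443 own bases. Of 7 markers of other cells, 1 reached 1 TPM, the fibroblast marker COL1A1 at 24.8 TPM. DCN, the other fibroblast marker, was at 0.030 TPM and PECAM1 at 0.033, and PTPRC, ALB, HBA1 and HBB were listed at 0. The labels give the material as genomic DNA, the methods as total RNA.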

How the data were processed

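RNA-seq of 3 replicates of HEK293T cells was analysed, which the study describes as independent biological replicates. Per the labels, reads were trimmed with Trimmomatic 0.38.0, aligned to hg38 with HISAT2 2.2.1 and counted with featureCounts, whose version and settings for strand and for reads on several transcripts are not given in the sources used here. The authors deposited, for each of 247541 transcripts, the count (whole reads, not normalized), the transcript length in bases (another deposited value, neither count nor level) and the TPM (count over length, rescaled per library by the authors). Identifiers were matched without version to GENCODE v44 on GRCh38: 223558 matched and 23983 did not, holding 0.158% to 0.166% of counts. Unmatched transcripts have no coordinates, so own bases are upper limits.

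Counts and TPM were summed per gene, and CPM used the total of all listed transcripts. At these depths a count of 0 allows up to 3 counts, which equal 0.352 to 0.479 CPM. Intervals are exact 95% Clopper-Pearson. Without molecular identifiers, PCR copies of a molecule count as separate reads. No conditions exist to compare. The members and lists were chosen with earlier results of these data known. Genes named were the members, for each the 2 named lncRNAs nearest in log2(CPM + 0.1), the 5 highest lncRNAs, genes within 20 kb, and context lists, for which up to 4 members each were foreseen. Where more are named, and for CD81 and NAP1L4, the further genes were chosen after their values were seen. Some items that these rules name are not reported here. Replicate pairs had identical counts in 5.54% to 6.38% of genes, so none was a copy. Alternatives were TMM factors (edgeR 4.0.16) and size factors (DESeq2 1.42.0), totals without mitochondrial counts, a filter on transcripts with few counts, another pseudocount, TPM, leading transcripts only and each replicate left out. Steps were tested on simulated data. Python 3.11.15, pandas 2.3.3, scipy 1.17.1 and R 4.3.3 were used.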

Additional observations from a re-analysis of the deposited data

How the results depend on the processing

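Of 134 recomputed values, 4 changed sign, 15 moved by more than the spread of the main value between replicates and 115 did neither, where log2 ratios between RNAs were judged by direction alone. With mitochondrial counts left out of the totals, mean levels moved to 6.77 CPM for MALAT1 and 1121 for NORAD, and the log2 difference of replicate 3 from the other replicates to 0.62 for MALAT1 and from below 0 to 0.057 for NORAD. With TPM in place of CPM, the log2 ratio of KCNQ1OT1 to TUG1 changed sign to -1.89, as did the replicate 3 difference of MALAT1 (-0.0070) and KCNQ1OT1 (-0.10), that of NORAD became -0.57, the log2 ratios of NORAD to NEAT1, NEAT1 to KCNQ1OT1 and TUG1 to MALAT1 kept their direction at 4.91, 2.47 and 2.46, and the share of TUG1 on its leading transcript became 53.2%. The share of lncRNA genes below each RNA became 61.6% for MALAT1, 90.7% for NEAT1, 99.9% for NORAD, 86.9% for TUG1 and 68.9% for KCNQ1OT1. Counting all annotated lncRNA genes, it became 95.9% for MALAT1, 99.994% for NORAD, 99.0% for TUG1 and 99.8% for KCNQ1OT1, because genes at 0 enter. TUG1 from its leading transcript only was at 15.7 CPM, with a log2 ratio to MALAT1 of 1.43. TPM lowers long RNAs by construction; other causes were not tested. Leaving out each replicate gave 936 to 1021 CPM for NORAD, 115 to 173 for NEAT1, 86.4 to 104 for KCNQ1OT1, 20.05 to 26.4 for TUG1 and 5.30 to 6.16 for MALAT1. Samples could not be paired between conditions, because those used here are of 1 condition. The sign-flip test paired neighbouring RNAs within each library. Depth limits MALAT1, with at most 56 counts in a replicate.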

Other observations

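Of 18 other well known lncRNAs in a list written from general knowledge, 10 reached a mean of 1 TPM, beside 15.2% of all lncRNA genes, with a list median of 1.40 TPM. HOTAIRM1, from the HOXA cluster, stood at 110 ± 29.05 TPM (SD, n = 3), and OIP5-AS1 at 101 ± 3.12. GAS5, a snoRNA host gene, was at 15.4 ± 7.46 TPM. H19, SNHG1 and the telomerase RNA TERC were listed at 0 in every replicate, with at most 96, 21 and 103 own bases in any of their transcripts.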
